A study of Mus musculus with 8 samples.

Results

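The 37 integrin and laminin chain genes of the mouse were examined in glomerular mesangial cells (MMC) with and without miR-379. The members were the gene rows whose symbol named an integrin alpha chain (18 rows), an integrin beta chain (8 rows) or a laminin chain (11 rows), of 24639 gene rows in all. Primary MMC came from wild-type C57BL/6J mice (WT) or from mice homozygous for a deletion of the miR-379 region made in C57BL/6J eggs with the CRISPR-Cas9 nickase (miR-379KO). The cells were cultured without a treatment. The deletion was in the germline, so every cell of the miR-379KO animals carried it, and the ages of the animals and the number pooled for a culture were not given in the sources used here. From each genotype, total RNA (poly(A)-selected) and RNA bound to AGO2, the Argonaute protein that holds microRNAs on their targets, and pulled down with antibody beads (AGO2-IP) were sequenced, with 2 libraries, A and B, in each of 4 groups. The study calls A and B independent samples, whereas neither it nor the labels say that they were separate cultures or animals, so the tests measure the spread between these samples, which may be technical.

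Integrins are receptors of the cell surface made of an alpha and a beta chain, and they tie the extracellular matrix to the actin cytoskeleton. Each alpha chain sets the ligand with its beta partner: some pairs read the RGD motif of fibronectin and vitronectin, others bind laminins or collagens, and one group is found on leukocytes. Laminins are trimers of an alpha, a beta and a gamma chain that form the sheet of a basement membrane. In the glomerulus, Lama5, Lamb2 and Lamc1 make the laminin of the mature filtration barrier, Itga3 with Itgb1 anchors podocytes to it, and Itga8 with Itgb1 is known as the mesangial receptor for nephronectin and other RGD ligands.

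The deleted microRNA and the full matches to its seed in the 3′-UTRs of the members are shown first, because the genotype comparison turns on it. The mature miR-379-5p lies at chr12:109709065-109709085 on the plus strand of GRCm38.p6, and capitals mark its seed, bases 2 to 8, in the RefSeq sequence.
miR-379-5p: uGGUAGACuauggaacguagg
The letters that pair with this seed are GTCTACC. They were searched on the sense strand of the longest annotated 3′-UTR of each gene. They occurred in 2 of 37 members (5.41%), against 776 of 19135 rows with a 3′-UTR (4.06%). Capitals mark the match in the sites of Itgb6 (chr2:60600085-60600091, minus strand) and Itgax (chr7:128150523-128150529, plus strand).
Itgb6: agtccttatgcattGTCTACCca
Itgax: agccattcatccttGTCTACCcc
Neither gene was among the chains that MMC expressed. Itgb6, an epithelial beta chain, had 7, 6, 4 and 2 counts in WT A, WT B, miR-379KO A and miR-379KO B total RNA, and Itgax, a leukocyte alpha chain, had 0, 2, 1 and 0. A letter match is a description and does not show a site in use. Shorter matches, coding sequence and the other mature strand of miR-379 were not searched, so other members may hold places to pair.

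Total RNA libraries held 17168230 to 22660743 gene counts and AGO2-IP libraries 5587611 to 17095021. In AGO2-IP, however, the rows Rn45s and Lars2, which collect ribosomal RNA reads, took most of these, and 1115782 to 1875037 counts remained outside them. Of the uniquely placed reads, 46.6% and 49.7% were assigned to no gene in WT AGO2-IP and 73.4% and 76.4% in miR-379KO AGO2-IP. Because the count was by exon and strand, such reads can also lie in introns or on the other strand of a gene. The row of the deleted gene, Mir379, held 0 counts in all total RNA libraries and 0, 4, 1 and 0 in the AGO2-IP libraries, so it was not a check of the genotype labels. Of 10 mesangial and pericyte markers, 7 reached 1 CPM (a count scaled to the library total, in parts per 1e6) in WT total RNA. These included Acta2, Tagln, Des and Pdgfrb, whereas Pdgfra and Art3 were near 0 and Ren1 was at 0. Des had 1801 counts in WT A and 14442 in WT B. The summed level of this list was 11638, 16738, 19021 and 16866 CPM in WT A, WT B, miR-379KO A and miR-379KO B total RNA. Of 8 podocyte markers, 4 reached 1 CPM, whereas Ptpro was at 0, and their summed level was 619, 256, 583 and 316 CPM in WT A, WT B, miR-379KO A and miR-379KO B total RNA. In the same order, summed tubular epithelial markers were 2.21, 65.2, 35.0 and 9.01 CPM, endothelial markers 39.3, 19.0, 40.6 and 25.1 CPM, leukocyte markers 1.81, 5.86, 5.60 and 1.80 CPM, and platelet markers 0.641, 0.747, 0.309 and 0.451 CPM. In WT, 4 of 9 tubular epithelial, 2 of 8 endothelial, 1 of 10 leukocyte and 0 of 5 platelet markers reached 1 CPM. The 2 endothelial ones were Flt1 and Ehd3, whereas Pecam1 and Cdh5 had 0 counts in both WT libraries. In such bulk samples, fewer cells of a type and less RNA per cell cannot be told apart.

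MMC expressed 24 of the 37 chains at a mean of at least 1 CPM in WT total RNA, of which 17 were integrins and 7 laminins. At 5 CPM there were 16, with 11 integrins and 5 laminins. Of all rows, 47.7% and 40.8% passed these levels. Levels were then compared between chains per length, as CPM per kb of exon, and the order over the 16 chains at 5 CPM or more is described without a test. The beta chain shared by most integrins, Itgb1, stood first.

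**Figure D1:**
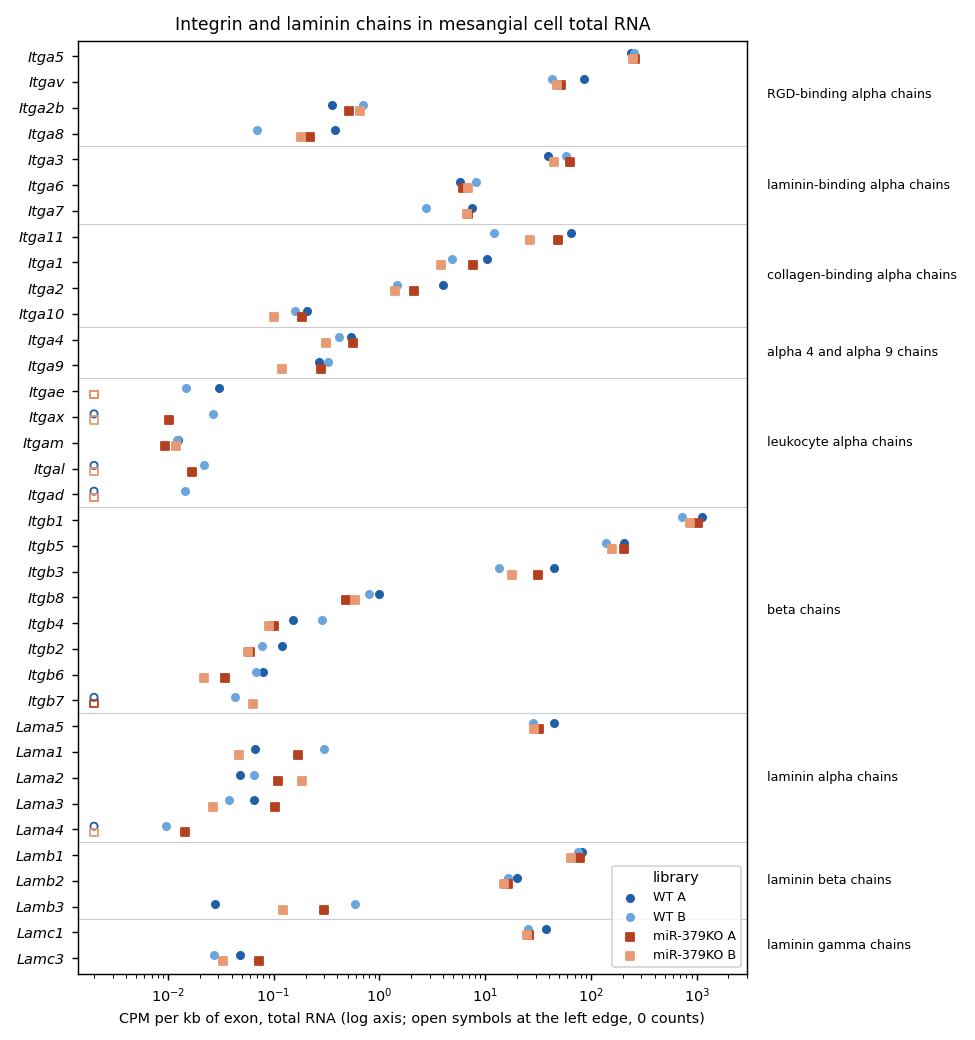
Level of each chain described in the 4 total RNA libraries, in CPM per kb of exon on a log axis, by role; circles are WT and squares miR-379KO libraries, and open symbols at the left edge mark 0 counts. Itgb1, Itga5 and Itgb5 stand at the right in every library, the leukocyte alpha chains at the left, and WT A and WT B lie apart for Itga11, Itga8 and Itgb3.

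Itga5, the fibronectin receptor chain that pairs with Itgb1, was the alpha chain with the highest level. It lay at 241 and 254 CPM per kb in the WT libraries A and B, against 261 and 250 CPM per kb in the miR-379KO libraries. It held 59.0% ± 9.66 (SD, n = 2) of the summed alpha chain level per kb in WT. The libraries of both genotypes were close together for this gene.

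Itgav, the vitronectin receptor alpha chain, was at 64.9 ± 31.1 CPM per kb (SD, n = 2) in WT and 49.8 ± 3.15 in miR-379KO, and its order against Itga3 differed between libraries. Its WT libraries were 2.03-fold apart. Itga8, by contrast, was a minor chain in these cultures. Itga8 had 38, 7, 29 and 19 counts in WT A, WT B, miR-379KO A and miR-379KO B total RNA, or 0.379, 0.0688, 0.219 and 0.183 CPM per kb. WT A was 5.50-fold above WT B, and both miR-379KO libraries lay between them. Itga2b, the platelet alpha chain, held 21 to 42 counts, with summed platelet markers as low as given above.

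The laminin receptor alpha chains were led by Itga3. Itga3 was at 48.9 ± 13.1 CPM per kb (SD, n = 2) in WT and 53.6 ± 13.2 in miR-379KO, followed by Itga6 at 6.96 ± 1.75 and Itga7 at 5.14 ± 3.34 in WT. The ranges of Itga6 and Itga7 overlapped. Itgb4, the beta chain that pairs with Itga6 in hemidesmosomes, had only 10 to 31 counts in total RNA.

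Among the collagen receptor chains, Itga11, an alpha chain of fibroblasts and other mesenchymal cells, varied more between WT libraries than any other of the 16. Itga11 had 5535 counts in WT A and 1036 in WT B, against 5492 in miR-379KO A and 2309 in miR-379KO B. WT A was thus 5.41-fold above WT B in CPM, and miR-379KO A was 1.86-fold above miR-379KO B. The summed podocyte markers were also higher in A than in B in both genotypes, as were Itga1 and Itgb3, and their part in these levels was not tested. Itga1 and Itga2, which bind collagens of basement membranes and fibrils, were at 7.65 ± 3.98 and 2.71 ± 1.77 CPM per kb in WT (SD, n = 2), with WT A 2.17-fold and 2.72-fold above WT B. Itga10, a cartilage collagen receptor chain, held 9 to 21 counts.

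Itga4 and Itga9, which form a small group that binds fibronectin splice forms and other ligands, held 55 to 125 and 15 to 45 counts in total RNA. The leukocyte alpha chains Itgad, Itgae, Itgal, Itgam and Itgax were at most 2 counts in every total RNA library. Their beta partners Itgb2 and Itgb7 had 3 to 6 and 0 to 3 counts. The limit that a count of 0 allows, 3 counts, was 0.132 to 0.175 CPM in these libraries and covers counting error only.

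Of the beta chains, Itgb1 made up 82.3% ± 0.719 of the summed level per kb in WT (SD, n = 2) and Itgb5, a partner of Itgav, 15.2% ± 0.431. Itgb1 had 1132 and 735 CPM per kb in the WT libraries A and B, against 1019 and 863 in the miR-379KO libraries. Itgb5 was at 206 and 138 CPM per kb in WT against 207 and 157 in miR-379KO. Itgb3, the other common partner of Itgav, differed between WT libraries, with 44.4 CPM per kb in WT A and 13.6 in WT B, and lay between them in miR-379KO, at 31.7 and 18.1. Itgb8 had 32 to 53 counts. The summed beta chain level was 2.30 to 2.99 times the summed alpha chain level over the 4 libraries.

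For laminins, 1 chain of each class dominated. Lama5 was 99.1% ± 0.733 of the alpha chain level per kb in WT, and Lamc1 was 95.2% ± 1.73 of the gamma chain level (SD, n = 2). Of the beta chains, Lamb1, which is part of immature and mesangial laminins, held 80.9% ± 0.868 and Lamb2, the beta chain of the mature glomerular barrier, 18.8% ± 1.30. The ratio of Lamb1 to Lamb2 was 4.07 to 4.74 over the 4 libraries. Lamb1 was therefore above Lamb2 in every library.

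Lamb1 was at 82.3 and 75.7 CPM per kb in the WT libraries A and B, against 78.5 and 65.5 in the miR-379KO libraries. Lamb2 was at 20.2 and 16.6 CPM per kb in WT against 16.6 and 15.1 in miR-379KO. Lama5 was at 44.3 and 28.3 CPM per kb in WT against 32.4 and 29.0 in miR-379KO, and Lamc1 at 37.4 and 25.6 in WT against 26.1 and 24.7 in miR-379KO. Lama5 and Lamc1 were at similar levels, with a ratio of 1.10 to 1.24. Lama4, an alpha chain of vessel walls, had 0, 1, 2 and 0 counts in WT A, WT B, miR-379KO A and miR-379KO B.

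The epithelial chains were low. Lamb3 had 2, 43, 28 and 9 counts in WT A, WT B, miR-379KO A and miR-379KO B total RNA, and Lama1 had 11, 50, 37 and 8. WT B and miR-379KO A were the high libraries for both chains. The summed tubular epithelial markers were also highest in those libraries, and their part in these levels was not tested. Lama3, the alpha chain of epithelial laminin, had 5 to 25 counts, Lama2, the muscle and nerve alpha chain, 8 to 32, and Lamc3 4 to 14.

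In the order of the 16 chains, neighbours did not overlap between WT libraries from Itgb1 to Itga5, from Itga5 to Itgb5, from Itgb5 to Lamb1 and from Lamb2 to Itga1. All other neighbours overlapped. The order from Lamb1 through Itgav, Itga3, Itga11, Lama5, Lamc1 and Itgb3 to Lamb2 is therefore not resolved by 2 WT libraries, and neither is that from Itga1 through Itga6 and Itga7 to Itga2.

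The first genotype comparison was made in total RNA, to see whether the loss of miR-379 changed these transcripts. None of the 27 members tested passed an adjusted p of 0.05 in edgeR's quasi-likelihood test, with a background of 0% over 12321 rows. None reached an unadjusted p of 0.05 either, against 91 of all rows, and DESeq2 called 0 members. By the study's own cutoff, which asked for an unadjusted p under 0.05 and more than a 1.5-fold change, 0 members passed, with a background of 0.682% of rows. The other 10 members were filtered for low counts. The median log2 fold change of miR-379KO over WT was −0.15 over the 27 members and −0.01 over all rows.

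**Figure D2:**
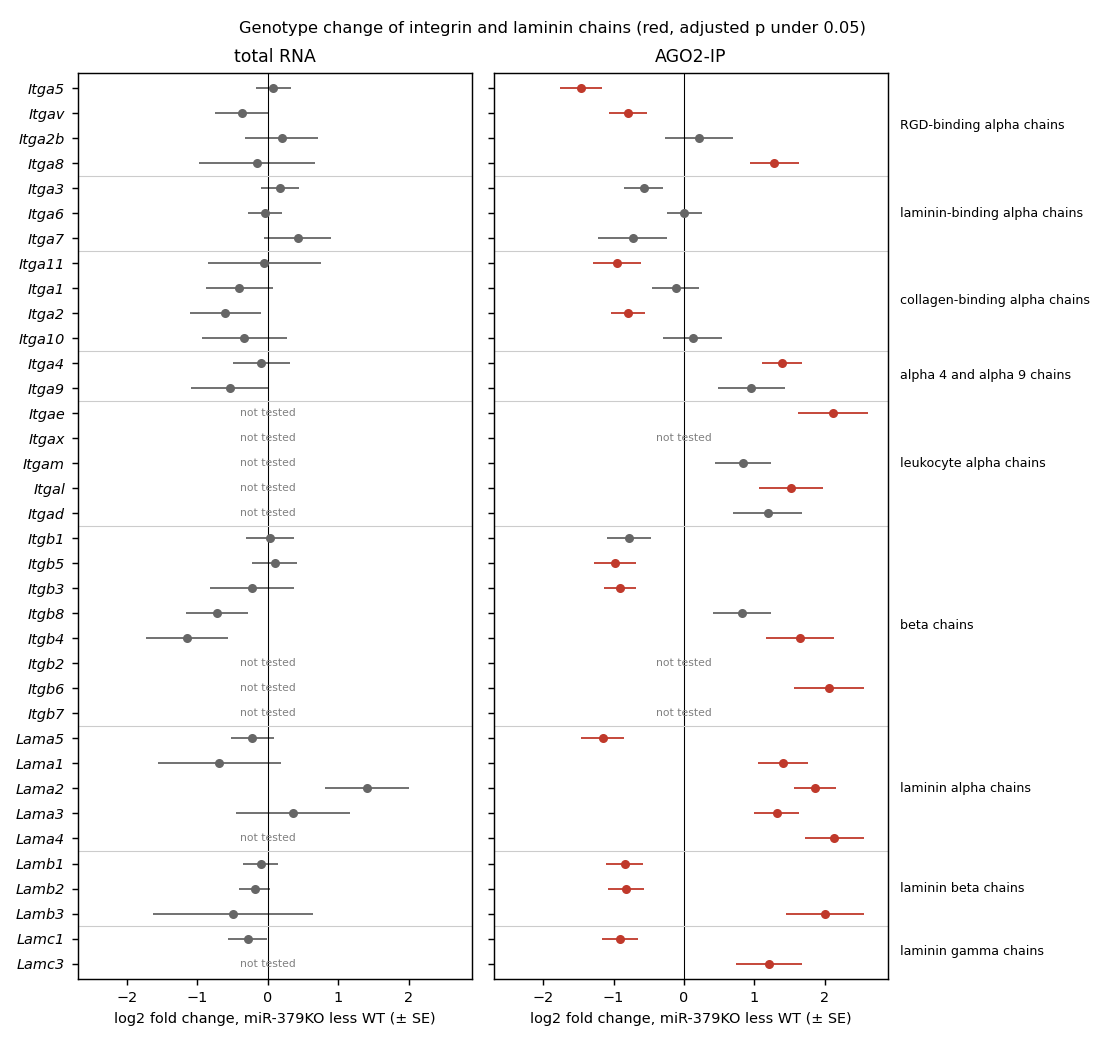
Log2 fold change of miR-379KO over WT for each chain in total RNA (left) and AGO2-IP (right) on the TMM scale; points are edgeR estimates, bars ± SE from 2 libraries per genotype, and red marks an adjusted p under 0.05. The left panel holds no red point, while the right one holds 12 to the right of 0 and 10 to the left; relative to rows without total RNA counts, 7 of those 12 lie below 0.

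For the abundant chains the estimates were small beside their errors. The log2 fold change in total RNA was 0.04 ± 0.34 (SE) for Itgb1, 0.08 ± 0.25 for Itga5 and 0.10 ± 0.32 for Itgb5. It was −0.22 ± 0.31 for Lama5, −0.10 ± 0.24 for Lamb1, −0.18 ± 0.22 for Lamb2 and −0.28 ± 0.28 for Lamc1. Each of these was at or within about its SE of 0. For Itga11 and Itga8, whose WT libraries stood far apart, the SE was 0.80 and 0.82, so that only a large change could have been called. Without WT A, the estimates of Itga11 and Itga8 turned from −0.05 and −0.15 to 1.73 and 1.62.

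The smallest unadjusted p among the members were those of Lama2 and Itgb4. Lama2 had 8 and 11 WT counts against 24 and 32 in miR-379KO total RNA, with a log2 fold change of 1.42 ± 0.60 (SE) and an adjusted p of 0.9997. Itgb4 had 16 and 31 WT counts against 14 and 10 in miR-379KO, with −1.14 ± 0.58 and the same adjusted p. In TMM-scaled CPM, the genotypes did not overlap in 5 of the 27 members (Lama2 and Itga5 higher in miR-379KO, Itgb4, Itgb8 and Itga9 lower), a share of the same order as the background of 19% of all rows. Without the TMM factors, as CPM per kb, Itga5 and Itga9 overlapped. None of the 5 passed the test.

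In AGO2-IP, the recovered RNA of the 2 genotypes differed for many members and in both directions. Of 34 members tested, 12 passed an adjusted p of 0.05 as higher and 10 as lower in miR-379KO, on the TMM scale. The background was 21.4% of 13505 rows called higher and 9.52% called lower. By the study's cutoff 15 members were higher and 11 lower, with backgrounds of 26.1% and 13.3%. With TMM factors taken from rows seen in total RNA, 14 members were higher and 8 lower, and the split of all calls moved from 2887 higher and 1286 lower to 3348 and 572. The rows Itgax, Itgb2 and Itgb7 were filtered. In TMM-scaled CPM, the genotypes did not overlap in 27 of the 34 members, with a background of 68.5% of rows.

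The direction followed the level in total RNA. Of the 16 members at 5 CPM or more, 10 were called lower and 0 higher, with a median log2 fold change of −0.81. Of the 18 tested members under 5 CPM, 12 were called higher and 0 lower. Their median was 1.36, and all 18 estimates were above 0. The filter for low counts used library totals that included Rn45s and Lars2 and were larger in WT. A low chain could therefore pass it through the miR-379KO libraries alone, so the shared direction of the low chains is not independent of the filter. Among the members called higher, Itga8, Itgae, Itgal, Itgb4, Itgb6, Lama4, Lamb3 and Lamc3 would not have passed on their WT libraries. Without a filter, 11 members were called higher and 13 lower. The median over all rows was −0.01. Spearman's rho between the AGO2-IP change and the mean total RNA count was −0.85 across the 34 members and −0.76 across the 13505 rows, as a description over rows that share the same 4 libraries.

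**Figure D3:**
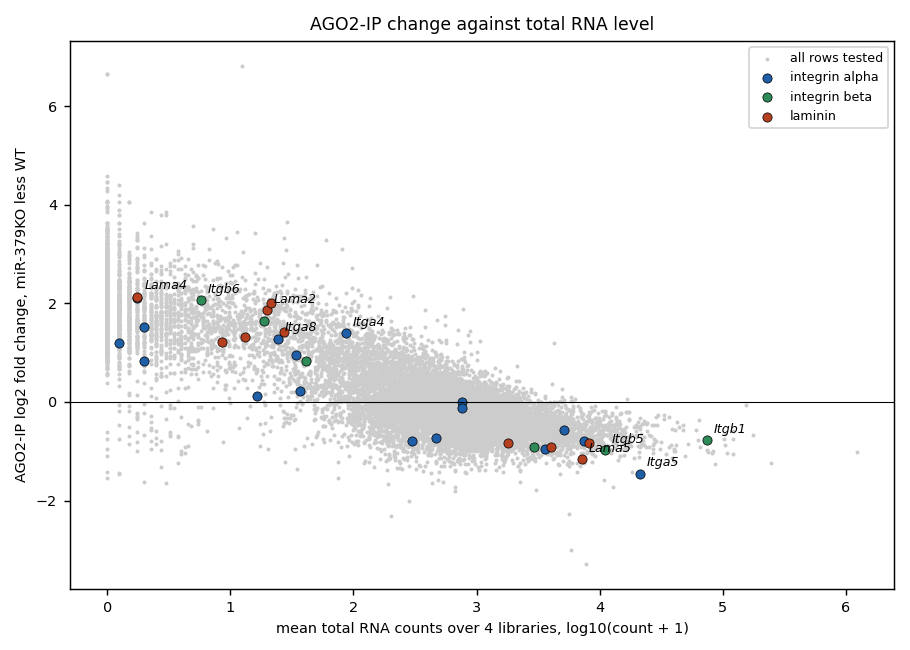
AGO2-IP log2 fold change of miR-379KO over WT on the TMM scale against the mean total RNA count, as log10(count + 1); grey points are all rows tested and coloured points the members described. Members follow the slope of all rows, with the low chains such as Lama4 and Itgb6 above 0 and the abundant chains such as Itga5 and Lama5 below 0; for low chains, the side of 0 depends on the scale.

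The low chains were close to rows of like level. Of the 17 members with a mean of up to 50 total RNA counts, 64.7% were called higher, against 68.1% of all such rows, and the median change was 1.32 against 1.54. Of the 11 members with a mean over 1000 counts, 81.8% were called lower, against 26.4% of such rows, and the median was −0.91 against −0.45. Thus the abundant chains lay further below 0 than the rows over 1000 counts taken as a whole, which was a description and was not tested. That group has no upper limit, and the change fell with level across all rows. Members such as Itgb1, with 53613 to 96854 counts in total RNA, were not matched in level within it. An excess particular to the chains is therefore not shown, and the same limit holds for the partner lists below.

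Itga5 had the lowest estimate of the members. Itga5 (chr15:103344286-103366791, minus strand) had 3946 and 3975 AGO2-IP counts in the WT libraries A and B, against 1375 and 1151 in the miR-379KO libraries. In CPM outside Rn45s and Lars2 these were 2104 and 2476 against 1051 and 1032. The genotypes were far apart and the replicates close. The log2 fold change was −1.46 ± 0.30 (SE), with an adjusted p of 0.00135, and −0.99 to −1.67 over 14 alternatives, of which 13 called it. Total RNA, as given above, showed 0.08 ± 0.25 for this gene.

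The other RGD-binding chains with a call were Itgav and Itga8. Itgav had 939 and 973 CPM outside the ribosomal rows in WT against 677 and 704 in miR-379KO, a log2 fold change of −0.79 ± 0.27 (SE) with an adjusted p of 0.0297. This call held in 6 of 14 alternatives. Itga8 was recovered at 16 and 16 WT counts against 32 and 36 in miR-379KO, a log2 fold change of 1.29 ± 0.35 with an adjusted p of 0.00854. Relative to the level of rows silent in total RNA, introduced below, Itga8 was lower in miR-379KO than in WT. For Itga2b the log2 fold change was 0.22 ± 0.48.

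No laminin-binding alpha chain was called. The log2 fold change was −0.57 ± 0.28 (SE) for Itga3, −0.73 ± 0.49 for Itga7 and 0.00 ± 0.25 (0.0045 before rounding) for Itga6. Of the collagen receptor chains, Itga11 and Itga2 fell and Itga1 and Itga10 did not pass. Itga11 had 859 and 346 WT counts against 339 and 192 in miR-379KO, with −0.95 ± 0.34 and an adjusted p of 0.0447, which held in 5 of 14 alternatives. Itga2 had 126 and 97 WT counts against 56 and 55 in miR-379KO, with −0.79 ± 0.24 and an adjusted p of 0.0143.

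Among the beta chains, Itgb5 and Itgb3 fell. Itgb5 had 636 and 600 CPM outside the ribosomal rows in WT against 500 and 274 in miR-379KO, with a log2 fold change of −0.98 ± 0.29 (SE) and an adjusted p of 0.0159. Itgb3 had 195 and 151 CPM in WT against 105 and 126 in miR-379KO, with −0.91 ± 0.23 and an adjusted p of 0.00548. The groups were apart for both genes. Itgb1, the common partner, had 3280 and 3587 CPM in WT against 2682 and 2310 in miR-379KO. Its log2 fold change of −0.78 ± 0.31 was close in size to that of Itgav but did not pass, with an adjusted p of 0.0596.

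The laminin chains that MMC expressed fell together in AGO2-IP on this scale. Lama5 (chr2:180176373-180225904, minus strand) had 2095 and 1694 CPM outside the ribosomal rows in WT against 1222 and 886 in miR-379KO, with a log2 fold change of −1.16 ± 0.30 (SE) and an adjusted p of 0.00696. Lamc1 had 569 and 454 CPM in WT against 355 and 324 in miR-379KO, with −0.91 ± 0.26 and an adjusted p of 0.0114. All 4 libraries kept the genotypes apart for both chains.

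Lamb1 had 841 and 761 CPM in WT against 557 and 557 in miR-379KO, with a log2 fold change of −0.84 ± 0.27 (SE) and an adjusted p of 0.0197. Lamb2 had 321 and 301 CPM in WT against 254 and 182 in miR-379KO, with −0.82 ± 0.25 and an adjusted p of 0.0166. The beta chains of the immature and of the mature laminin thus had nearly the same estimate. The calls held in 6 of 14 alternatives for Lamb1, 9 for Lamc1, and 10 for Lamb2 and Lama5, and in 9 for Itga2 and Itgb5 and 11 for Itgb3.

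These lower calls depended on the scale and on single libraries. In CPM of all gene counts, Rn45s and Lars2 included, 4 of the 10 (Lamb1, Itga2, Itgav and Lamb2) had log2 ratios above 0, with the highest at 0.07. With a minimum mean of 50 counts in the fit, which left 16 members to test and moved their estimates upward, Itga5 alone was called lower. Without miR-379KO B, 2 members were called lower and 4 higher, and without WT A, 6 were called lower.

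The 12 members called higher were Itga4, Itga8, Itgae, Itgal, Itgb4, Itgb6, Lama1, Lama2, Lama3, Lama4, Lamb3 and Lamc3, with log2 fold changes of 1.21 to 2.14. They had at most 125 counts in any total RNA library and between 1 and 92 counts in any AGO2-IP library. Several belong to leukocytes or epithelia. Itgae, the alpha chain of intraepithelial lymphocytes, had 8 and 3 WT counts against 22 and 20 in miR-379KO AGO2-IP, and 2, 1, 0 and 0 in total RNA. Lama4 had 6 and 10 WT counts against 29 and 33 in miR-379KO AGO2-IP, with a log2 fold change of 2.14 ± 0.42 (SE) and an adjusted p of 0.00102.

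The AGO2-IP signal of genes without total RNA gives a floor for such counts. The 4801 protein-coding autosomal rows with 0 total RNA counts in all libraries had 1.40 and 0.945 counts per kb in WT AGO2-IP (A, B), compared with 3.19 and 3.63 in miR-379KO AGO2-IP. The 12 members called higher were at 0.254 to 3.23 times this level in WT and 0.518 to 2.61 times in miR-379KO, with a median of 1.42 in both genotypes. Relative to this level, 5 of the 12 (Lama2, Lama4, Itgae, Lamb3 and Itgb6) were higher in miR-379KO and 7 lower, and the 10 members called lower were at 12.6 to 941 times it in WT and 2.13 to 96.5 times in miR-379KO. Since the floor was higher in miR-379KO, this scale lowered the ratio of miR-379KO to WT by a similar amount for every chain. The direction of those 7 low chains therefore turned on it. The 10 called lower could only move further below 0, and all 12 tested members without a call were below 0 too. The scale is thus no check of the lower calls. As given above, 4 of those 10 were above 0 in CPM of all gene counts. The part of this floor in the calls was not tested.

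**Figure D4:**
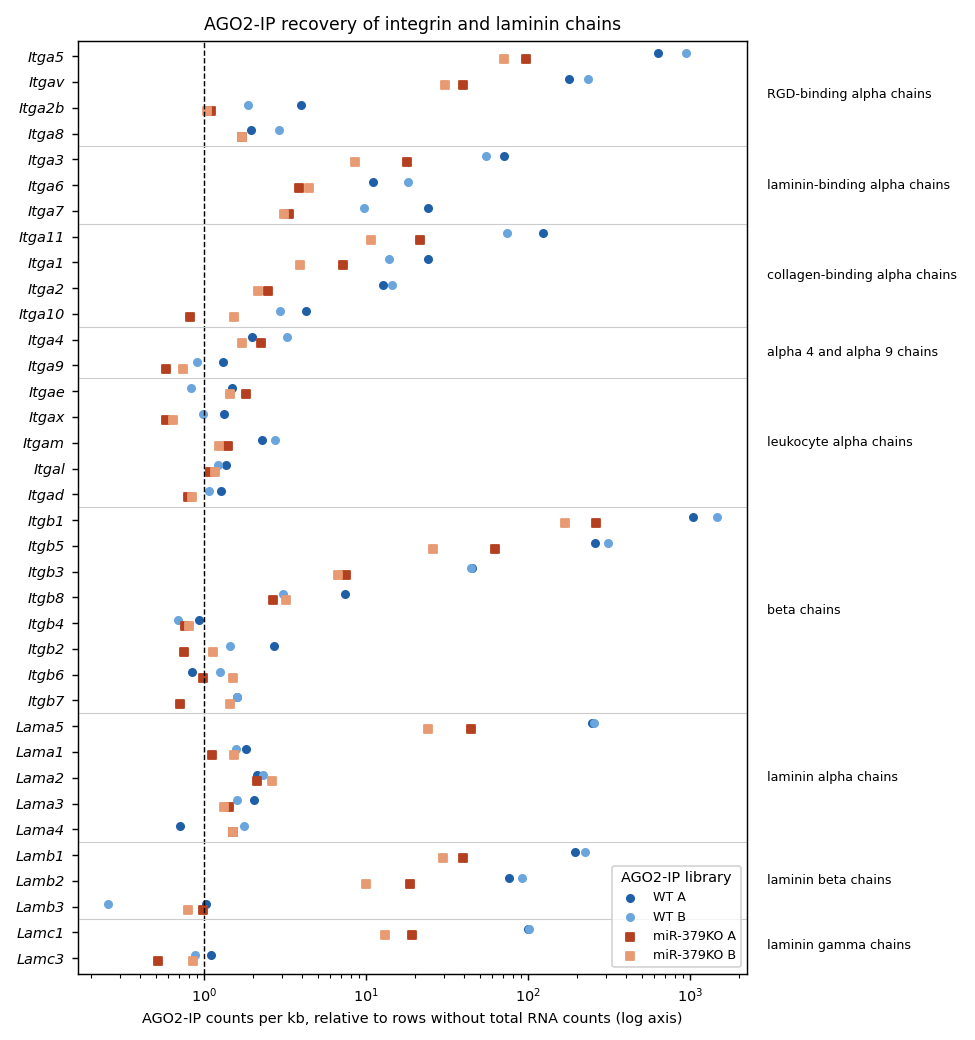
AGO2-IP counts per kb of exon of each chain divided by the mean counts per kb of 4801 protein-coding rows without total RNA counts, per library on a log axis; circles are WT, squares miR-379KO, and the dashed line marks 1. The low chains lie near the line in all 4 libraries, while Itga5, Itgb1 and Lama5 lie far to its right, with WT libraries above miR-379KO libraries.

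Of the low chains, Lama2, Itga4 and Lama4 kept their calls under the most alternatives. Lama2 had 29 and 21 WT counts against 65 and 92 in miR-379KO AGO2-IP, a log2 fold change of 1.86 ± 0.30 (SE) with an adjusted p of 0.000258. It was called in 14 of 14 alternatives, and its total RNA estimate, which did not pass, was 1.42. Itga4 had 27 and 30 WT counts against 70 and 61 in miR-379KO, with 1.39 ± 0.28 and an adjusted p of 0.00123, called in 12 of 13 alternatives. Lama4 was called in 12 of 13 as well, but most alternatives kept the filter that it passed through its miR-379KO libraries. The number of alternatives that called Lama4 is thus no support for its direction. Relative to the floor, Itga4 was lower in miR-379KO than in WT, in contrast to Lama2. Itgb6, with the seed match shown above, had 6 and 6 WT counts against 16 and 28 in miR-379KO, a log2 fold change of 2.06 ± 0.50 with an adjusted p of 0.00367.

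The AGO2-IP level of the expressed chains was also set beside their total RNA level, both in CPM outside Rn45s and Lars2. This was a description, since the assays were prepared differently. Lama5 was recovered 4.23-fold above its total RNA level in WT and 2.82-fold in miR-379KO, Itga2 3.04-fold and 3.42-fold, and Lamb2 2.78-fold and 2.28-fold. Itga5 was at 1.92-fold in WT and 0.853-fold in miR-379KO, and Itgb1 at 0.810-fold and 0.591-fold. The median over 10056 rows was 0.778-fold in WT and 0.886-fold in miR-379KO. All 16 chains were above this median in WT, with Lama5 at the top, and 11 of 16 in miR-379KO, where Itgb1, Itgb5, Itga3, Itgb3 and Itga5 were below it.

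Whether the AGO2-IP change differed from the total RNA change was tested in 1 fit of 8 libraries. None of the 37 members passed an adjusted p of 0.05 in edgeR, with a background of 0% over 17429 rows, and the lowest adjusted p of any row was 0.211. At an unadjusted p of 0.05, 11 members passed, all with a fold over 1.5, against a background of 15.7% by that rule. Of these, Itga4, Itgae, Itgb4 and Itgb6 were higher and Itga5, Itgb5, Itgb1, Lama5, Lamb1, Lamb2 and Lamc1 lower. The AGO2-IP change of a chain was thus not shown to differ from its total RNA change at the adjusted threshold.

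Itga5 had the smallest p of the members in this fit, with a difference of −1.75 ± 0.41 (SE) on the log2 scale and an adjusted p of 0.229. DESeq2 called 2 members, Itga5 with −1.49 and an adjusted p of 5.50e-07 and Lamb1 with −0.69 and 0.0484. These stood beside a background of 0.689% of rows called by DESeq2. Without WT total RNA B, edgeR called 8.57% of all rows and 1 of the 37 members, Itga5, with −1.87 and an adjusted p of 0.0165.

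Partners of the chains were described from 3 lists. In the integrin adhesion complex (28 genes, the proteins that link beta chain tails to actin), 0 of 27 tested passed in total RNA, where the abundant Flna and Actn1, actin crosslinkers, had log2 fold changes of 0.15 ± 0.28 and 0.09 ± 0.27 (SE). In AGO2-IP, on the TMM scale here and for the next lists, 11 of 27 fell and 0 rose, with a median of −0.59 against −0.01 over all rows and a background of 9.52% of rows called lower. All 11 were among the 23 with a mean over 1000 total RNA counts (47.8%, against 26.4% of all rows over 1000 counts, not matched in level within that group). Ilk, the integrin-linked pseudokinase, had 422 and 332 WT counts against 215 and 165 in miR-379KO, with −0.78 ± 0.23 and an adjusted p of 0.0138. Vasp, an actin polymerisation factor, and Tgfb1i1, a paxillin relative, fell by 0.85 and 0.87 on the log2 scale.

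Of 19 basement membrane partners of laminin, 0 of 18 tested passed in total RNA, with Sparc at 0.24 ± 0.28 (SE) and Col4a1, a collagen IV chain, at −0.25 ± 0.35. In AGO2-IP, 9 of 18 fell and 0 rose, with a median of −0.85 and the same background of 9.52%. Over 1000 total RNA counts, 8 of 13 fell (61.5%, against 26.4% of such rows). The lowest p were those of Nid2, a nidogen that joins laminin to collagen IV, at −1.20 ± 0.24, Agrn, the proteoglycan agrin, at −1.46 ± 0.30, and Hspg2, the proteoglycan perlecan, at −1.42 ± 0.33. The estimates of Agrn and Hspg2 were near that of Itga5.

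Of 25 integrin ligands other than laminin, 0 of 18 tested passed in total RNA, with Fn1, fibronectin, at −0.14 ± 0.31 (SE) and Thbs1, thrombospondin, at −0.00 ± 0.36 (−0.0024 before rounding). In AGO2-IP, 12 of 20 fell and 2 rose, with a median of −0.87 and backgrounds of 9.52% lower and 21.4% higher. All 12 were among the 15 with over 1000 total RNA counts, where 26.4% of all rows were called lower. Tgfb1, whose latent form is bound by Itgav pairs, had 278 and 272 WT counts against 118 and 86 in miR-379KO, with −1.24 ± 0.23 and an adjusted p of 0.000689. Cyr61, a matricellular protein, and Col1a1, a collagen I chain, fell by 1.02 and 1.25 on the log2 scale. The 2 that rose, Cdh1 at 1.86 and Tnn at 1.37, had at most 14 and 0 counts in total RNA. In the fit of 8 libraries, 0 genes of the 3 lists passed.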

How the data were processed

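The authors deposited whole-number gene counts, without normalization, for each of 8 libraries. Per their methods and labels, reads were aligned to mm10 with TopHat (Bowtie2 2.1.0.1) and assigned by HTSeq 0.6.0, set to the reverse strand, to RefSeq genes from UCSC. Summary rows that name no gene held 19.8% to 23.8% of listed reads in total RNA and 73.1% to 88.9% in AGO2-IP, and were left out of tests. AGO2-IP reads came from cross-linked, sonicated lysates. Most AGO2-IP gene counts lay in Rn45s and Lars2, so the effective depth of AGO2-IP is that outside these rows.

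Counts were tested in edgeR 4.0.16 (R 4.3.3) by the quasi-likelihood F test with TMM factors, the filterByExpr filter (minimum count 10), robust dispersions and Benjamini-Hochberg adjustment over all rows tested. The genotype comparisons used the 4 libraries of an assay, and the difference of changes all 8. SE is the coefficient divided by the root of F. The scripts were tested on simulated data. Symbols were matched to RefSeq GRCm38.p6 (23602 by symbol, 716 by synonym, 321 not matched). Exon length divided CPM where chains were compared.

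All members entered the counts. Of those to be described, 1 is not reported, and the others at 1 CPM in WT total RNA or with a call were described. Of each partner list, the 3 genes per direction with the lowest p among those called were named, or, with none called, the 2 with the highest CPM. The members and lists were chosen with earlier results of these data known.

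Replicates differed by more than sampling noise (chi-square per degree of freedom 3.51 to 119). Letters A and B were shared by all groups. Alternatives were DESeq2 1.42.0, RLE factors, TMM factors from rows with a mean of 10 total RNA counts, no filter, at least 50 counts on average, 1 fit of all 8 libraries, the letter as a block, a lowess offset (span 0.3) for exon length and GC content, both together, and omission of each library. The crossed pairing, the omission of Rn45s and Lars2 and the scale relative to rows silent in total RNA were added after the data were seen.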

Additional observations from a re-analysis of the deposited data

How the results depend on the processing

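The count of members called in total RNA was 0 under every alternative run, the block and the crossed pairing included. In AGO2-IP, the members called higher numbered 12, and 3 with DESeq2, 1 with a mean of at least 50 counts (16 members tested), 1 with all 8 libraries in one fit and 4 to 12 when a library was left out. The members called lower numbered 10, and 1 with a mean of at least 50 counts, 4 with all 8 libraries, 5 with the GC and length offset, 3 with the replicate block and that offset, and 2 to 10 when a library was left out. The count for the difference of changes was 0, 2 with DESeq2 and 0 to 1 when a library was left out. TMM factors from rows seen in total RNA moved the AGO2-IP median of all rows to 0.16, with 14 members higher and 8 lower, and the split of all calls from 2887 higher and 1286 lower to 3348 and 572. Called rows over all genes were 524 higher and 314 lower with DESeq2, and 376 and 310 with all 8 libraries.

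Across genotypes, same-letter deviations correlated at −0.11 in total RNA and 0.04 in AGO2-IP, and across assays within a genotype at 0.22 in WT and 0.18 in miR-379KO. With 2 letters this does not show a pairing, though libraries of one letter may be related in the fit of 8 libraries. With the replicate block, 0 members were called in total RNA, 11 higher and 8 lower in AGO2-IP, and 0 for the difference. The crossed pairing in total RNA gave 0 members and 1 row in all.

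Total RNA log2 fold changes that turned sign were those of Itgb3 (0.057 with the block and offset), Itga6 (0.011 with all 8 libraries, 0.067 with the offset, 0.11 with block and offset), Itga11 (0.10 with all 8 libraries, 0.39 with the block, 0.40 with block and offset, 0.39 with the crossed block) and Itga8 (0.24 with the block, 0.14 with the offset, 0.40 with both, 0.20 with the crossed block). In AGO2-IP these were Itga1 (0.048 with TMM from rows seen in total RNA, 0.24 with a mean of at least 50 counts), Itga6 (−0.029 with DESeq2 and −0.028 with RLE factors, −0.22 without a filter, −0.15 with all 8 libraries, −0.0045 with the block, −0.13 with the offset, −0.14 with both) and Itga10 (−0.093 without a filter, −0.0050 with all 8 libraries). No such value had passed the test. The cause was not tested.

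With a library left out, total RNA estimates ranged from −0.15 to 1.39 for Itga7, −0.031 to 0.42 for Itga3, −0.86 to 0.95 for Itgb3, −0.21 to 0.018 for Lamb1, −0.93 to 0.34 for Itga1, −1.18 to 0.37 for Itga2, −0.20 to 0.49 for Itgb5, −0.57 to 0.083 for Lamc1, −0.22 to 0.19 for Itga6, −0.82 to 0.31 for Itgav, −0.55 to 0.21 for Lama5, −0.28 to 0.45 for Itgb1, −0.82 to 1.73 for Itga11, −0.37 to 0.026 for Lamb2 and −0.92 to 1.62 for Itga8. AGO2-IP estimates ranged from −1.35 to 0.27 for Itga7, −0.32 to 1.06 for Itga2b, −0.61 to 0.51 for Itga1, −0.29 to 0.17 for Itga6 and −0.61 to 0.57 for Itga10. With 1 library left in a group, it was assumed to vary like the others. The 34 members tested in AGO2-IP held as few as 1 count in a library, and at that depth the direction of a low chain is not resolved.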

Other observations

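Rows with similar symbols that are not integrin or laminin chains were read as well. Itgb1bp1, which encodes a protein that binds the tail of Itgb1, had 317 and 576 WT counts against 652 and 540 in miR-379KO total RNA, with a log2 fold change of 0.25 ± 0.30 (SE). Itgb3bp, a centromere protein gene that carries an integrin name, had 74 and 71 WT counts against 80 and 84 in miR-379KO total RNA. In AGO2-IP Itgb3bp had 5 and 14 WT counts against 28 and 21 in miR-379KO, a log2 fold change of 1.54 ± 0.46 on the TMM scale with an adjusted p of 0.0141. Itgbl1 and Itgb2l had 0 counts in all total RNA libraries and 7 to 16 and 2 to 10 counts in the AGO2-IP libraries.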
